A study of Rattus norvegicus with 6 samples.

Results

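Cytoplasmic ribosomal protein genes were followed in RNA from rat sciatic nerve repaired with a conduit. The members were all gene models of the deposited table whose symbol was Rpl or Rps followed by a number and at most 1 letter, and whose description began with the words "ribosomal protein". This gave 79 of 21028 gene models, 48 of the large subunit and 31 of the small subunit. They carried 71 symbols and stood for 67 proteins, since some proteins had several models. By position, 61 models lay on the chromosome where RefSeq places the gene of that symbol (called main models here), 14 lay on another chromosome (called copy models), and 4 were separate paralog genes. That division was made after values were seen, so it is described and not tested. Of the 14 copy models, 8 carried an Entrez identifier whose RefSeq symbol holds the letters -ps for pseudogene. The Rps10 copy, Rps10l1 in RefSeq, has no such symbol but is typed there as a pseudogene as well.

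The ribosome is built from ribosomal RNAs and a large set of small basic proteins, most of them present as a single copy in each particle. The mRNAs of these proteins are among the most abundant in most cells and share a start called the 5′ terminal oligopyrimidine (TOP) motif, a C followed by a run of pyrimidines. Through this motif mTOR signalling and the RNA-binding protein LARP1 set how much of them is translated, so their mRNA level and their protein output can part. In an injured nerve, Schwann cells, fibroblasts and infiltrating immune cells all make new ribosomes, and axons carry ribosomal protein mRNAs as well.

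The study assigned 6 female rats of wild-type genotype at random to 2 groups of 3. PLLARS_US rats received a PLLARS conduit together with ultrasound stimulation, and PCL rats received a PCL conduit and no ultrasound. Conduit and ultrasound differed together, so their effects cannot be told apart, and no unoperated nerve was analysed here. The labels state no strain, age, time after surgery or batch. Each library came from poly(A)-selected RNA. Values are FPKM, fragments corrected for model length and for library size, so levels are per length and may be compared between genes. Differences are on the log2(FPKM + 1) scale, PLLARS_US minus PCL, and understate the change of models with low values.

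The libraries held 15640000 to 16360000 fragments in the PLLARS_US group and 15320000 to 16690000 in the PCL group, as read from the steps between the lowest values. Markers of the labelled tissue were present in every library: the Schwann lineage list, 6 of 6 genes found, averaged 5.49 to 6.96 in PLLARS_US and 5.34 to 6.57 in PCL on the log2(FPKM + 1) scale. Skeletal muscle RNA varied most among the marker lists. Its summed level over the 9 of 12 listed genes found was 14935, 21.8 and 2929 FPKM in PLLARS_US replicates 1 to 3, and 114, 1307 and 9598 FPKM in PCL replicates 1 to 3, with no gene of the list at 0 in all libraries. PLLARS_US replicate 1 and PCL replicate 3 are called the muscle-rich libraries below. Red blood cell genes averaged 10.7, 3.87 and 6.49 in PLLARS_US and 11.2, 7.84 and 7.50 in PCL on the log2(FPKM + 1) scale.

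The start sequences are shown first because they are the feature these genes are known to share. RefSeq start sites on assembly GRCr8 were found for 47 of the 60 symbols with a main model, and each line gives 12 bases before and 18 bases from the annotated start. Capitals mark a run of pyrimidines counted from a C within 5 bases of that start, with at least 4 further pyrimidines. The base before this C was not checked, so pyrimidines can continue upstream of the capitals, as in Rpl14, Rpl35 and Rps24. Such runs are included in the counts below. The first 5 are among the 6 most abundant members, and Rpl41, Rpl3 and Rps6 are shown as main genes without such a run. Rpl14 and Rps24 are from the members that kept closest to the common pattern described below, and Rps27 with Rps27l and Rpl3 with Rpl3l are pairs of a main gene and its paralog.
Rpl10 (chrX:157205838-157205867, + strand): gcgtgggagcgtCTCTTTTCCTCTggcgcg
Rpl35 (chr3:43165904-43165933, - strand): cccttcctCTTTCTCTCgaaccgggcggcc
Rps15 (chr7:10068098-10068127, - strand): tgacaccgCTTCCTTTTCCCagcagccgcc
Rps23 (chr2:23814505-23814534, + strand): gtccttcctgCCTCTCTTCTCTCTTTCTCT
Rpl41 (chr7:1563480-1563509, - strand): ggctcggaagtgacgacaccaagcacgcca
Rpl14 (chr8:129163608-129163637, + strand): cgggccctCTCCCTTCTCgctgagcgccgc
Rps24 (chr16:96505-96534, + strand): gcggtcctCTTTTCCTCCTTTacagctcgg
Rps27 (chr2:177964589-177964618, - strand): tccgctttcgCTCCTTTCCggcggtgacga
Rps27l (chr8:76443646-76443675, + strand): tattcatttgtcattatttgtggtgtccag
Rpl3 (chr7:113507973-113508002, - strand): gcgcctgctcgatctctatcggcggcgtgt
Rpl3l (chr10:14258434-14258463, + strand): ctctggtgcctggtggggaggtcccttcct
Rps6 (chr5:106420523-106420552, - strand): gcctcctaggcggtcggctgtgtcaagatg

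Exactly at the annotated base, a C with at least 4 following pyrimidines stood in 14 of the 47 member genes, 29.8%, and in 2.63% of all 33469 promoters. With a shift of up to 5 bases allowed, 29 genes held such a run, 61.7%, against 17.0% of all promoters. Among 16 other mRNAs listed as TOP mRNAs, such as those of elongation factors, 0 had the run at the annotated base and 6, 37.5%, had it within 5 bases. In the 300 bases around the start (250 before and 50 after), the letters CTTCCG, searched on both strands, stood in 27 member genes, 57.4%, and in 16.6% of all promoters. TATAAA, also searched on both strands, stood in 4 member genes, 8.51%, and in 14.2% of all promoters. The median log2 difference between the groups was 0.19 over the 29 genes with a pyrimidine run near the start and 0.14 over the 18 genes without one. A start site that is annotated a few bases off hides a run, so no match says only that these letters were not in the window.

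Ribosomal protein mRNAs made up a large part of each library. The members held 5.96, 8.08 and 8.02% of summed FPKM in PLLARS_US replicates 1 to 3, and 7.41, 6.65 and 5.51% in PCL replicates 1 to 3. The mean share was 7.35 ± 1.21% in PLLARS_US and 6.52 ± 0.959% in PCL (SD, n = 3 each), and the groups overlapped. Both muscle-rich libraries were the lowest of their group, and without them the difference of the means was 1.02 percentage points, against 0.83 with all 6 libraries. With 1 library left out the difference was 1.53 points when this was PLLARS_US replicate 1, 0.467 for PLLARS_US replicate 2, 0.498 for PLLARS_US replicate 3, 1.28 for PCL replicate 1 and 0.323 for PCL replicate 3. The same 2 libraries had the lowest Schwann lineage lists, 5.49 in PLLARS_US replicate 1 and 5.34 in PCL replicate 3 against 6.38 to 6.96 in the other 4, and the lowest fibroblast lists, 8.77 and 8.66 against 9.41 to 9.56 (6 of 7 genes found). Neutrophil genes, 5 of 5 found, averaged 4.94 in PLLARS_US replicate 1 and 2.21 to 3.33 in the other 5 libraries. The part that these cell types play in the share was not tested, and in bulk tissue fewer cells of a type and less RNA per cell cannot be told apart.

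**Figure D1:**
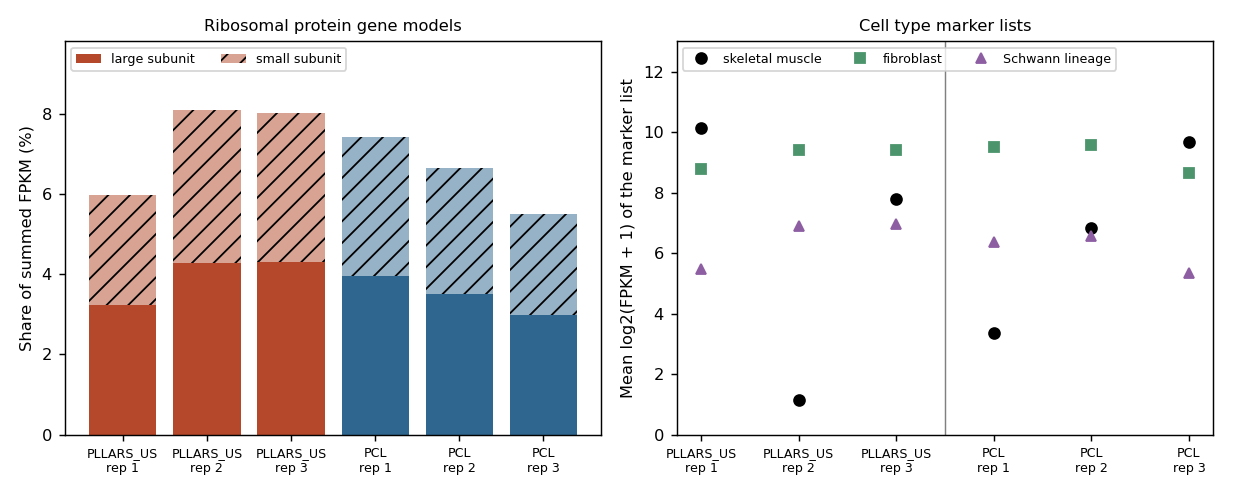
Left, share of summed FPKM (%) held by ribosomal protein gene models in each library, with large and small subunit models stacked; right, mean log2(FPKM + 1) of 3 cell type marker lists in the same libraries. The share runs from 5.51% in PCL replicate 3 to 8.08% in PLLARS_US replicate 2, and the 2 libraries with the lowest shares have the highest skeletal muscle level.

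The subunits kept nearly the same proportion while the share moved. Summed FPKM of large subunit models was 1.19, 1.12 and 1.15 times that of small subunit models in PLLARS_US, and 1.15, 1.11 and 1.19 times in PCL. The mean ratio was 1.15 ± 0.0311 in PLLARS_US and 1.15 ± 0.0383 in PCL (SD, n = 3 each), so the groups differed by less than the spread within either. The median log2 difference was 0.19 over the 46 tested large subunit models, 41 of them above 0, and 0.18 over the 31 small subunit models, 27 of them above 0.

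Levels spanned a wide range among the members. The median of the 79 mean levels was 444 FPKM and 60 models had a mean of at least 100 FPKM, while 12 had under 30. Of the 100 most abundant models in the table, 26 were members. Rpl41, which encodes a very short basic protein, was the highest at 1101, 1584 and 1721 FPKM in PLLARS_US and 1669, 1219 and 1130 FPKM in PCL. Rps20, a protein of the head of the small subunit, followed at 1262, 1603 and 1414 FPKM in PLLARS_US and 1597, 1289 and 1010 FPKM in PCL. Both genes were high in PCL replicate 1 and the groups overlapped, with log2 differences of 0.13 and 0.15. Rps15, which takes part in export of the small subunit, had 989, 1348 and 1194 FPKM in PLLARS_US and 1297, 1102 and 954 FPKM in PCL. Rpl35, near the exit of the peptide tunnel, had 1036, 1313 and 1247 FPKM in PLLARS_US and 1185, 1050 and 866 FPKM in PCL. Rps23, which lines the decoding site, had 905, 1246 and 1143 FPKM in PLLARS_US and 1119, 970 and 801 FPKM in PCL. All 3 were lower in replicate 1 than in the other replicates of PLLARS_US and lowest of the PCL libraries in replicate 3. The neighbours in this order did not differ beyond their spread over libraries.

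Rpl10, the protein whose late addition completes the large subunit, varied least among the well expressed members. It had 1035, 1192 and 1098 FPKM in PLLARS_US and 1089, 957 and 994 FPKM in PCL, an SD of 0.113 on the log2 scale over the 6 libraries. Its log2 difference was 0.13 (SE 0.17, limma adjusted p = 0.945). Rpl18, Rpl24 and Rpl27 were the next most even genes, with log2 differences of 0.06, 0.18 and 0.12.

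The main models shared one profile over the libraries. After each gene was centred on its own mean, the median of the 61 main models was -0.17, 0.23 and 0.20 in PLLARS_US replicates 1 to 3, and 0.12, -0.11 and -0.30 in PCL replicates 1 to 3 on the log2 scale. Over all tested genes the same medians were -0.15, 0.02 and 0.02 in PLLARS_US and 0.05, 0.08 and -0.07 in PCL. PCL replicate 3 was the lowest library for 45 of the 61 main models, against 24.3% of all tested genes. PLLARS_US replicate 1 was the lowest for 8, against 34.9% of all tested genes. PLLARS_US replicate 2 was the highest for 34, against 14.2%. The 2 lowest libraries were the muscle-rich ones in 36 of the 61 main models, against 32.3% of all tested genes. When the common profile was subtracted, the median SD of a main model over the libraries was 0.0891 on the log2 scale, against 0.236 before. For other genes a different profile was subtracted, the medians of all tested genes given above. This left 0.271 of 0.282 over all tested genes and 0.285 over 733 genes with a mean of at least 100 FPKM. How far other genes follow the profile of the main models was not computed. That profile came from the main models themselves, so a smaller remainder in them is in part built in.

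**Figure D2:**
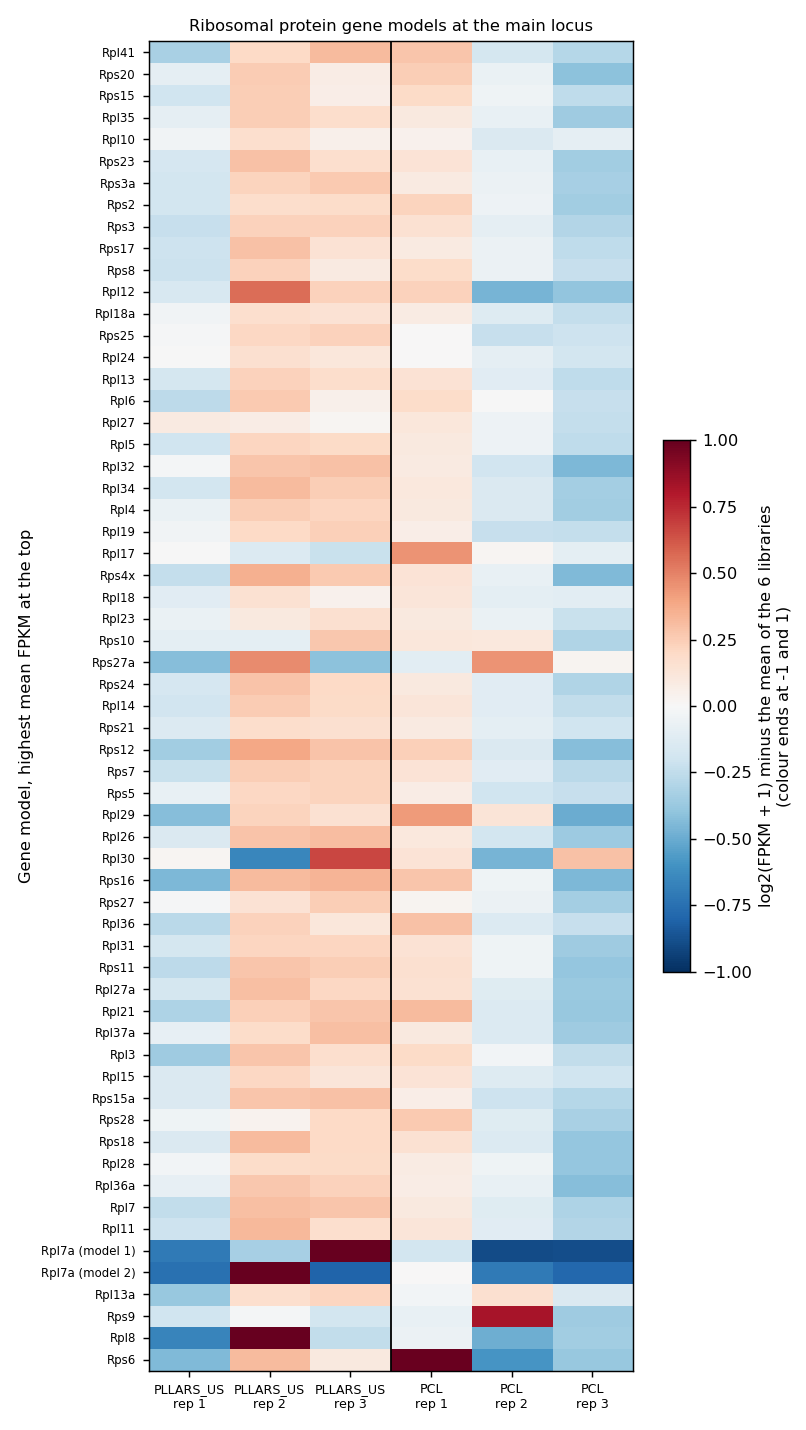
Each row is 1 main ribosomal protein gene model, ordered by mean FPKM, each column 1 library, and colour is log2(FPKM + 1) minus the gene's mean over the 6 libraries. Most rows repeat the same 6 colours, red in PLLARS_US replicates 2 and 3 and blue in PCL replicate 3, while Rpl7a, Rpl30, Rps27a, Rpl17, Rpl8, Rps9 and Rps6 break the pattern.

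Rpl13, a large subunit protein, kept closest to the profile, with 687, 911 and 878 FPKM in PLLARS_US and 857, 716 and 651 FPKM in PCL. Rps24, a small subunit protein needed for processing of ribosomal RNA, had 526, 721 and 677 FPKM in PLLARS_US and 631, 548 and 480 FPKM in PCL. Rps3, at the mRNA entry of the ribosome and also an enzyme of DNA repair, had 827, 1139 and 1139 FPKM in PLLARS_US and 1075, 909 and 791 FPKM in PCL. All 3 were high in PLLARS_US replicates 2 and 3 and PCL replicate 1, and low in the other 3 libraries. Rpl5, which with Rpl11 and 5S RNA binds Mdm2 when ribosome assembly fails, had 627, 834 and 819 FPKM in PLLARS_US and 770, 692 and 604 FPKM in PCL. Rpl11 followed the same order of libraries at a lower level, 78.6, 114 and 102 FPKM in PLLARS_US and 99.0, 84.0 and 74.1 FPKM in PCL. Rpl13a, also known as a repressor of translation in interferon-treated cells, had 15.8, 23.6 and 24.4 FPKM in PLLARS_US and 20.4, 23.4 and 18.7 FPKM in PCL, a log2 difference of 0.01 (SE 0.20).

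No ribosomal protein gene model differed between PLLARS_US and PCL nerves after adjustment. The limma fit over 13720 genes with a mean of at least 1 FPKM called 0 genes at an adjusted p under 0.05, 0% of those tested, and 960 genes, 7.00%, at an unadjusted p under 0.05. Of the 79 members, 77 were in the fit and their smallest adjusted p was 0.640. The others were an Rpl21 copy model on chromosome 3, with at most 0.270 FPKM in any library, and the paralog Rpl39l, with 0.367, 0.867 and 0.384 FPKM in PLLARS_US and 0.785, 2.65 and 0.120 FPKM in PCL.

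The differences were small and mostly above 0. A log2 difference above 0 was found for 68 of the 77 tested members, against 43.0% of all tested genes. The median difference of the members was 0.19, with quartiles of 0.12 and 0.27, against -0.04 for all tested genes and -0.01 for the 733 genes with a mean of at least 100 FPKM. The members moved together over the libraries, so their counts are not 77 independent results. With 1 library left out the median was 0.32 when this was PLLARS_US replicate 1, 0.11 for PLLARS_US replicate 2, 0.31 for PCL replicate 1 and 0.09 for PCL replicate 3, and it was 0.21 with both muscle-rich libraries left out. None of these turned the sign.

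**Figure D3:**
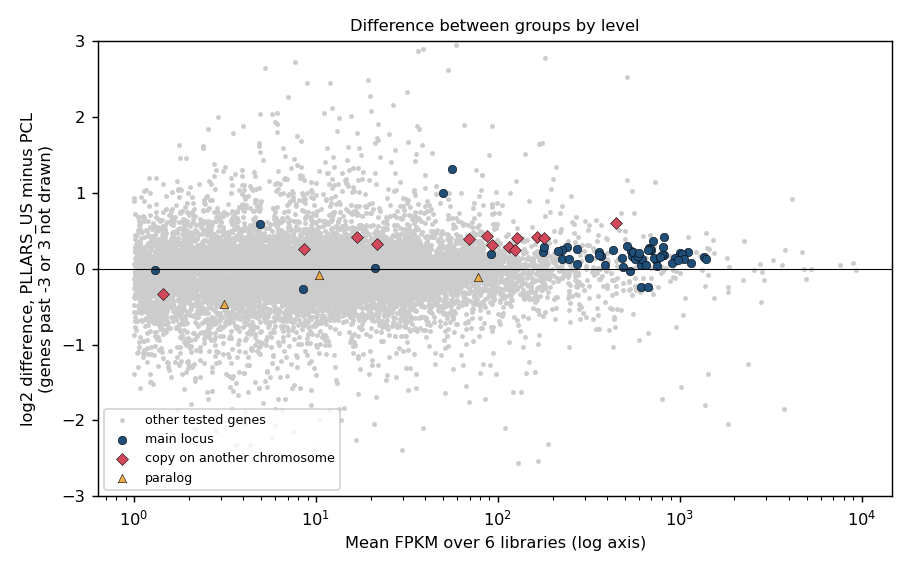
Log2 difference between PLLARS_US and PCL (vertical axis) against mean FPKM on a log axis, with 1 point per tested gene and ribosomal protein models marked by kind. Main models above 100 FPKM lie in a narrow band mostly just above 0, copy models lie somewhat higher, and the main models farthest above 0 are Rpl8 and both Rpl7a models.

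At an unadjusted p under 0.05, 4 members were higher in PLLARS_US, 5.19% of those tested against 1.99% of all tested genes, and 0 were lower, against 5.01% of all tested genes. All PLLARS_US values lay above all PCL values for 5 members, against 4.33% of all tested genes, and below them for 0 members, against 10.0%. Every one of these 5 was a copy model and none was a main model. Among the 61 main models the smallest unadjusted p was 0.126, and the median log2 difference was 0.17 with 56 above 0. Among the 13 tested copy models the median was 0.39 with 12 above 0. With 1 library left out the 4 higher and 0 lower members became 7 higher and 1 lower when this was PLLARS_US replicate 1. Of all tested genes 3.93% were then higher. The count of higher members became 0 for PLLARS_US replicate 2 or 3, with 2.06 and 1.32% of all tested genes higher. It became 1 for PCL replicate 2 or 3, with 1.5 and 1.45% of all tested genes higher.

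The 4 copy models are short single spans, and reads of a parent gene of similar sequence can be assigned to them, so their values are uncertain. Positions are given as deposited and their build is uncertain, since the submitters' processing notes name hg38 while the identifiers are rat. An Rpl32 copy (ENSRNOG00000032605, chr6:145777318-145777767, - strand, Rpl32-ps3 in RefSeq) had 74.6, 85.6 and 75.3 FPKM in PLLARS_US and 67.9, 55.9 and 55.5 FPKM in PCL. Its log2 difference was 0.39 (SE 0.14, unadjusted p = 0.0275, limma adjusted p = 0.640). Its parent on chromosome 4 had 695, 857 and 863 FPKM in PLLARS_US and 752, 616 and 516 FPKM in PCL, a log2 difference of 0.37. As a percentage of the parent the copy was 9.81 ± 1.01 in PLLARS_US and 9.62 ± 0.994 in PCL (SD, n = 3 each), a difference smaller than the spread between libraries.

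An Rpl37 model on chromosome 10 (chr10:64336200-64336546, + strand, Rpl37l1 in RefSeq) had 182, 201 and 178 FPKM in PLLARS_US and 160, 124 and 136 FPKM in PCL. The log2 difference was 0.42 (SE 0.15, unadjusted p = 0.0276, limma adjusted p = 0.640). RefSeq types this model as protein-coding, and it held 98.3% of the FPKM of all models described as L37. No main Rpl37 model was among the members, so no parent could be set beside it. An Rpl39 model on chromosome 14 (chr14:33030959-33031282, - strand, Rpl39-ps12 in RefSeq) had 22.4, 26.1 and 24.7 FPKM in PLLARS_US and 18.7, 18.0 and 20.9 FPKM in PCL. Its log2 difference was 0.33 (SE 0.12, unadjusted p = 0.0344, limma adjusted p = 0.659), and its span and the depth give 119, 137 and 125 fragments in PLLARS_US and 93.0, 93.0 and 113 in PCL. The model that RefSeq names Rpl39, LOC103693375, lay outside the rule and its groups overlapped, with a log2 difference of 0.04 (SE 0.14). It had 50.6, 60.2 and 62.9 FPKM in PLLARS_US and 63.3, 54.0 and 51.5 FPKM in PCL. An Rps29 model on chromosome 13 (chr13:91334004-91334306, + strand, Rps29-ps16 in RefSeq) had 91.2, 114 and 94.5 FPKM in PLLARS_US and 89.8, 67.6 and 64.9 FPKM in PCL. Its log2 difference was 0.44 (SE 0.18, unadjusted p = 0.0470, limma adjusted p = 0.705). None of the 4 passed the adjusted threshold.

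Next by p came an Rpl21 copy on chromosome 13, the fifth model without overlap, with 94.5, 99.0 and 117 FPKM in PLLARS_US and 89.5, 73.8 and 84.8 FPKM in PCL. It was 31.7 ± 5.41% of the main Rpl21 model in PLLARS_US and 28.2 ± 6.48% in PCL (SD, n = 3 each). An Rpl35a copy on chromosome 5 had 18.0, 20.1 and 20.0 FPKM in PLLARS_US and 13.5, 18.7 and 11.3 FPKM in PCL, so the groups overlapped. The Rps4x copy on chromosome 4 was 28.2 ± 2.19% of its main model in PLLARS_US and 25.4 ± 0.406% in PCL (SD, n = 3 each), and every PLLARS_US percentage lay above every PCL percentage. For every other copy compared with a main model in this way the percentages of the groups overlapped. Copy models together made up 4.50, 3.97 and 4.51% of the members' FPKM in PLLARS_US and 4.10, 3.03 and 3.77% in PCL.

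Only 9 tested members had a log2 difference below 0, and their unadjusted p was 0.190 or above. Rpl17, a large subunit protein near the tunnel exit, had 660, 602 and 568 FPKM in PLLARS_US and 907, 670 and 619 FPKM in PCL. Its log2 difference was -0.25 (SE 0.20, limma adjusted p = 0.882), and PCL replicate 1 stood above the rest. Rps9, a small subunit protein important for decoding accuracy, had 6.97, 8.05 and 7.07 FPKM in PLLARS_US and 7.72, 15.3 and 6.14 FPKM in PCL. Its log2 difference of -0.27 (SE 0.31) came with 1 high library, PCL replicate 2, and was 0.08 without it. Rpl29, Rps6 and Rps27a on chromosome 14 were the other main models below 0.

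Some proteins had several models, and the similarity of their sequences was not measured here. For the 3 of these proteins described here single rows jumped between libraries while for Rps27a and Rpl30 the sums varied less. Other rows jumped too. The Rps10 copy had an SD of 0.627 on the log2 scale, against 0.181 for the sum of both Rps10 models. LOC100911575, a P2 model outside the rule, had 6.32, 233 and 4.96 FPKM in PLLARS_US and 5.06, 180 and 3.10 FPKM in PCL. Rps27a encodes ubiquitin fused to a small subunit protein. Its main model on chromosome 14 had 443, 824 and 446 FPKM in PLLARS_US and 551, 812 and 604 FPKM in PCL. Its copy on chromosome 5, a pseudogene in RefSeq, had 458, 395 and 721 FPKM in PLLARS_US and 574, 212 and 304 FPKM in PCL. The sums were 901, 1218 and 1167 FPKM in PLLARS_US and 1125, 1024 and 909 FPKM in PCL. The SD over libraries was 0.186 on the log2 scale for the sum, against 0.396 and 0.634 for the single models, and the sum was highest in PLLARS_US replicates 2 and 3 and in PCL replicate 1.

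Rpl30, a large subunit protein that in yeast also regulates splicing of its own mRNA, had 472, 295 and 740 FPKM in PLLARS_US and 511, 335 and 568 FPKM in PCL. An L30-like model outside the rule, LOC100362027, had 323, 605 and 319 FPKM in PLLARS_US and 338, 371 and 128 FPKM in PCL. Together they had 795, 900 and 1059 FPKM in PLLARS_US and 849, 706 and 696 FPKM in PCL, and the SD was 0.228 for the sum against 0.490 for Rpl30 alone. LOC100362027 was looked up after the values were seen.

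Rpl7a, a large subunit protein, was the exception. Its 2 models on chromosome 3 have equal length. The model at chr3:4867233-4869656 had 17.5, 23.0 and 241 FPKM in PLLARS_US and 25.6, 15.2 and 15.3 FPKM in PCL. The model at chr3:5459160-5461583 had 14.8, 216 and 14.2 FPKM in PLLARS_US and 25.5, 15.2 and 14.3 FPKM in PCL. A different model was high in PLLARS_US replicates 2 and 3. The sum of these 2 models was 32.3, 239 and 255 FPKM in PLLARS_US and 51.1, 30.4 and 29.7 FPKM in PCL. A further model described as L7A lay outside the rule, LOC108349606 on chromosome 18. It had 73.6, 86.0 and 95.7 FPKM in PLLARS_US and 58.7, 79.0 and 60.5 FPKM in PCL. With it the L7A sum was 106, 325 and 351 FPKM in PLLARS_US and 110, 109 and 90.1 FPKM in PCL, a smaller relative jump. The log2 differences of the single models were 1.31 (SE 0.98) and 0.99 (SE 1.05), with limma adjusted p-values of 0.864 and 0.925. PLLARS_US replicate 1 lay within the PCL range in both sums, so the groups overlapped.

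**Figure D4:**
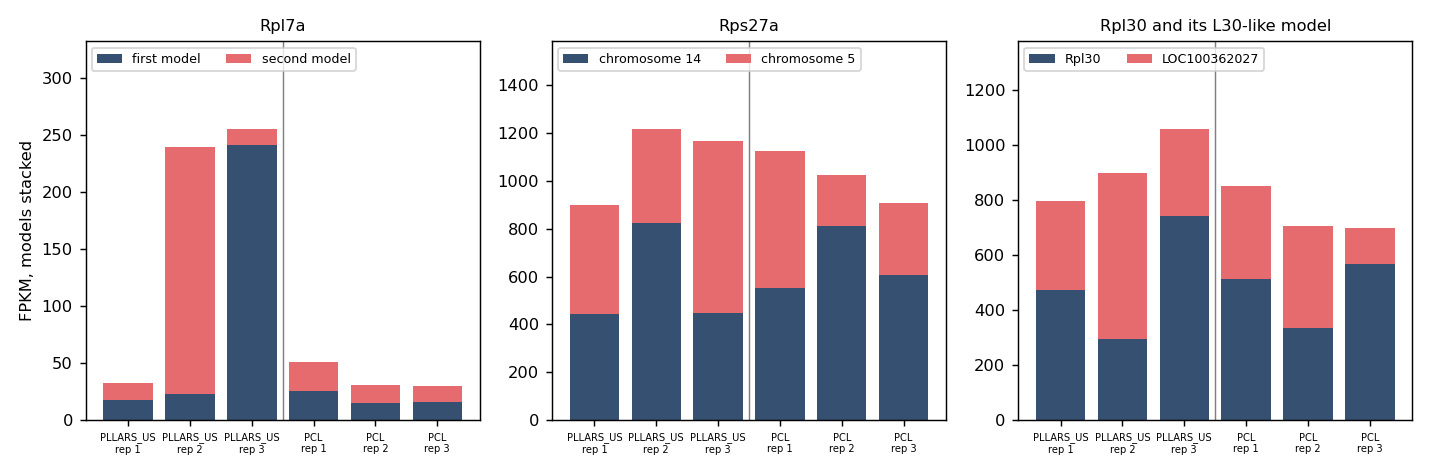
FPKM of 2 models described as the same protein, stacked per library, for Rpl7a, Rps27a, and Rpl30 with the L30-like model LOC100362027. The Rps27a and Rpl30 sums vary less than their parts. The sum of the 2 Rpl7a models drawn is 239 and 255 FPKM in PLLARS_US replicates 2 and 3. In the other 4 libraries it is at most 51.1 FPKM. A further L7A model, LOC108349606, is not drawn.

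When every model described as the same protein was added, 67 protein sums resulted, 45 of them over several models. The sum was higher in PLLARS_US than in PCL for 64 proteins, with a median log2 difference of 0.19 and a median SD of 0.229 over the libraries. PCL replicate 3 was the lowest library for 55 of the sums and PLLARS_US replicate 1 for 7, against 24.3% and 34.9% of all tested genes. For 9 proteins the largest model was not a member. By Entrez identifier it was the RefSeq gene itself for S6, S29 and L9 and a RefSeq pseudogene for L8, L35a, L38 and L39, while the largest L7a and L13a models had no RefSeq name.

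S6, the small subunit protein phosphorylated by S6 kinase downstream of mTOR, was 1 of those 9. The model with the symbol Rps6 was among the lowest members, with 0.575, 1.66 and 1.29 FPKM in PLLARS_US and 3.25, 0.423 and 0.644 FPKM in PCL. Another model, LOC100911372, which RefSeq names Rps6 by its Entrez identifier, had 147, 110 and 54.4 FPKM in PLLARS_US and 40.4, 26.1 and 14.8 FPKM in PCL. Its groups did not overlap, and its log2 difference was 1.89 (SE 0.48, unadjusted p = 0.00732, limma adjusted p = 0.496). It was named after its values were seen and did not pass the adjusted threshold. Rpl8, a large subunit protein close to the catalytic centre, was another low member, with 2.05, 15.7 and 3.06 FPKM in PLLARS_US and 3.63, 2.44 and 2.79 FPKM in PCL. PLLARS_US replicate 2 alone was high, and the log2 difference of 0.59 (SE 0.63) was -0.16 without it.

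The paralogs showed other patterns than the main genes. Rpl3l replaces Rpl3 in ribosomes of skeletal and heart muscle. Rpl3l had 20.6, 0.367 and 5.08 FPKM in PLLARS_US and 0.242, 4.34 and 31.5 FPKM in PCL. It made up 8.98, 0.113 and 1.66% of the pair in PLLARS_US and 0.0792, 1.63 and 12.3% in PCL. Its libraries stood in nearly the same order as the summed skeletal muscle markers, highest in both muscle-rich libraries and lowest in PLLARS_US replicate 2 and PCL replicate 1. Rpl3 had 209, 324 and 300 FPKM in PLLARS_US and 306, 262 and 225 FPKM in PCL, with both muscle-rich libraries the lowest of their group. The log2 difference was -0.09 (SE 1.45) for Rpl3l and 0.06 (SE 0.22) for Rpl3.

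**Figure D5:**
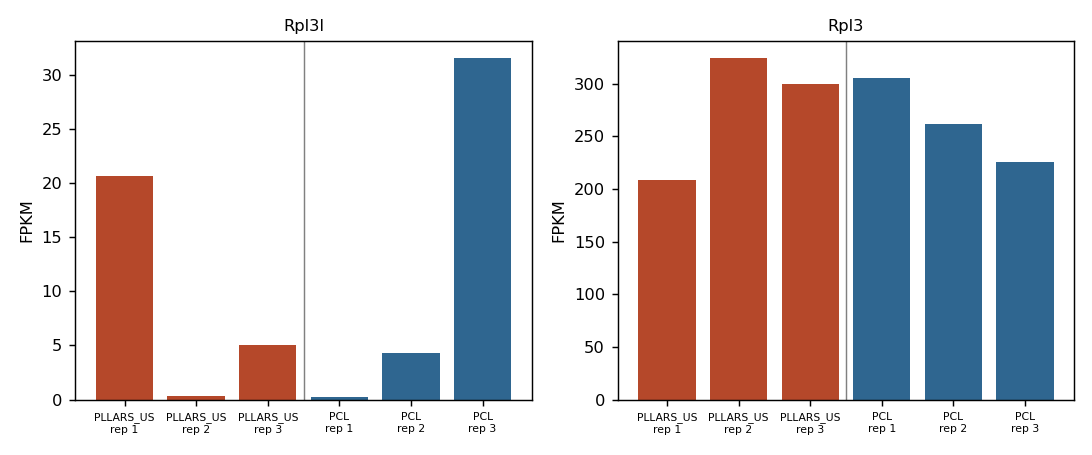
FPKM of the muscle paralog Rpl3l (left) and of Rpl3 (right) in each library, with PLLARS_US in red and PCL in blue and separate vertical axes that start at 0. Rpl3l is highest in PLLARS_US replicate 1 (20.6 FPKM) and PCL replicate 3 (31.5 FPKM), the libraries in which Rpl3 is lowest within its group.

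Rps27l, a p53-responsive paralog of Rps27, had 60.3, 88.4 and 77.0 FPKM in PLLARS_US and 85.4, 74.3 and 80.8 FPKM in PCL. It was 12.5, 15.8 and 13.2% of the pair in PLLARS_US and 16.4, 15.4 and 19.4% in PCL, so the ranges overlapped. Rps27 itself had 424, 471 and 505 FPKM in PLLARS_US and 436, 410 and 337 FPKM in PCL, a log2 difference of 0.25 (SE 0.17), against -0.10 (SE 0.17) for Rps27l. Rpl10l, the testis paralog of Rpl10, made up 0.385, 0.210 and 0.109% of its pair in PLLARS_US and 0.381, 0.357 and 0.346% in PCL. Outside the rule, Rpl7l1, a paralog of Rpl7, was 32.8, 28.9 and 27.8% of its pair with Rpl7 in PLLARS_US and 29.0, 33.0 and 34.6% in PCL. The row with the symbol Rpl36al is Rpl36al-ps2 in RefSeq, a pseudogene, so no pair with Rpl36a is given. The model that RefSeq names Rpl36al1, LOC108348287, had 149, 173 and 178 FPKM in PLLARS_US and 175, 161 and 157 FPKM in PCL, and was looked up after values were seen.

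Genes that make and regulate ribosomes were set beside the members. Each count of these lists is to be read against all tested genes, of which 43.0% had a difference above 0, and 1.99% were higher and 5.01% lower at an unadjusted p under 0.05. A list of 12 symbols outside the rule, ribosomal protein genes such as those of the stalk together with Rack1, had 8 of 9 tested above 0. In either direction 0 were called at that p. By Entrez identifier the tested Fau row is Faul1 and the Rpl36al row is the pseudogene Rpl36al-ps2, so not every row is the gene of its symbol. Rplp0 of the stalk had 1193, 1817 and 1747 FPKM in PLLARS_US and 1577, 1354 and 1042 FPKM in PCL, the same order of libraries as Rpl5. Among 18 other TOP mRNAs tested, 16 were above 0 with a median log2 difference of 0.12, and 0 reached an unadjusted p under 0.05. Ribosome biogenesis factors had 36 of 56 above 0 and a median of 0.06, with 0 higher and 2 lower at an unadjusted p under 0.05, a smaller share than the 5.01% lower of all tested genes. These were Tsr2, the chaperone of Rps26, with a log2 difference of -0.52 (unadjusted p = 0.0349, limma adjusted p = 0.660), and Wdr75, a processing factor of the small subunit, with -0.42 (unadjusted p = 0.0453, limma adjusted p = 0.701).

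RNA polymerase I and III genes, which make ribosomal RNA and tRNA, had 10 of 32 above 0 and a median of -0.12, against 43.0% and -0.04 over all tested genes. At an unadjusted p under 0.05, 0 were higher and 2 lower, a share close to the background of 5.01%. Taf1c, a subunit of the polymerase I selectivity factor, had 3.87, 5.65 and 4.82 FPKM in PLLARS_US and 8.25, 7.42 and 6.14 FPKM in PCL (log2 difference -0.52, SE 0.18, limma adjusted p = 0.640). Gtf3c2, of polymerase III initiation, had 13.3, 15.5 and 15.3 FPKM in PLLARS_US and 19.7, 18.9 and 17.3 FPKM in PCL (log2 difference -0.32, SE 0.12, limma adjusted p = 0.677). For 9 genes of this list the groups did not overlap, 2 with PLLARS_US above PCL and 7 with it below, 7 of 32 against 10.0% of all tested genes.

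In the list of TOP mRNA and S6 signalling, 11 of 19 were above 0, 2 were higher and 1 was lower at an unadjusted p under 0.05, against 1.99% higher and 5.01% lower over all tested genes. Rps6kb2, an S6 kinase, had 9.44, 7.78 and 8.44 FPKM in PLLARS_US and 14.1, 13.4 and 11.7 FPKM in PCL. Its groups did not overlap, with a log2 difference of -0.56 (SE 0.14, unadjusted p = 0.00591, limma adjusted p = 0.496). Eif4ebp2, a translation repressor that mTOR inactivates, had 34.1, 44.3 and 45.6 FPKM in PLLARS_US and 31.0, 31.4 and 28.9 FPKM in PCL, a log2 difference of 0.42 (SE 0.15, limma adjusted p = 0.640). Eif2ak2, the interferon-induced kinase PKR, was the other higher gene, with a log2 difference of 1.03 (limma adjusted p = 0.214).

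In the p53 list, which responds when free ribosomal proteins bind Mdm2, 3 of 11 were above 0, against 43.0% of all tested genes, and the median was -0.18. At an unadjusted p under 0.05, 0 were higher and 2 lower, against 1.99% and 5.01% of all tested genes. Mdm4, a partner of Mdm2 that restrains p53, had 15.1, 15.5 and 15.5 FPKM in PLLARS_US and 22.1, 24.1 and 20.3 FPKM in PCL. The groups did not overlap, and the log2 difference was -0.50 (SE 0.12, unadjusted p = 0.00488, limma adjusted p = 0.459). Bax, a pro-apoptotic p53 target, had 35.0, 37.0 and 34.0 FPKM in PLLARS_US and 45.1, 44.1 and 43.0 FPKM in PCL, a log2 difference of -0.31 (SE 0.10, unadjusted p = 0.0235, limma adjusted p = 0.627). No gene of these lists passed the adjusted threshold.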

How the data were processed

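RNA-seq of sciatic nerve from 3 PLLARS_US and 3 PCL rats was analysed, 1 library per rat, taken from the titles. Values are the FPKM the authors deposited, 1 column per library with no pooling. Tools named per the submitters' processing notes are StringTie 1.3.3b, HISAT2 2.1.0, FastQC 0.11.5 and DESeq 1.28.0; their roles and settings, and the treatment of reads that map to several places, are not given in the sources used here. The kit as named per the labels does not state strand, so antisense reads cannot be told apart. No counts were analysed, so limma 3.58.1 in R 4.3.3 was fitted to log2(FPKM + 1) for 13720 genes with a mean of at least 1 FPKM, with no term but group and with limma's trend option. p-values were adjusted by Benjamini-Hochberg over all tested genes, with a threshold of 0.05. p-values measure the spread between these libraries. An exact permutation test of 3 against 3 cannot go below 0.1.

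Depth was read from 446 small models, where 1124 of 1124 values came within 0.03 of a whole number of fragments, and rounded to 10000. The fit was tested on simulated data. The members, lists and alternatives were chosen with earlier results of these data known. Members were named by level (6 highest, 6 lowest), by p (6 in each direction), by spread (4 largest, 4 smallest), as paralog pairs or for textbook roles, and up to 3 genes of each list by p. Others named, such as Rpl13, Rps24, Rpl30, Rps4x and the LOC models, were chosen after their values were seen. Entrez identifiers of 73 members were found in RefSeq (GRCr8), the source of names and start sequences. The replicate numbers gave correlations of -0.5, 0.146 and -0.32 and were not treated as pairs. Alternatives covered the pseudocount, filter, scaling, trend, array weights, a replicate block, each library left out and both muscle-rich libraries left out.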

Additional observations from a re-analysis of the deposited data

How the results depend on the processing

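The median log2 difference of the members stayed above 0 under all 17 alternatives, 0.0918 to 0.322 with 1 library left out and 0.155 with quantile normalization. Members at an unadjusted p under 0.05 in either direction numbered 4, against 2 after rescaling to a common FPKM sum, 9 with median-ratio scaling and 28 with array weights (26 higher, 2 lower), 0 to 8 with 1 library left out, and 0 with a replicate block. The share of all tested genes called higher moved as well, from 1.99% in the main fit. It was 1.72% after rescaling, 3.02% with median-ratio scaling and 6.57% with array weights. With 1 library left out it was 1.32 to 3.93%, and with a replicate block 1.27%. The replicate numbers did not pair the samples. Genes at an adjusted p under 0.05 numbered 0, against 118 with array weights, none of them a member, and 0 to 3 with 1 library left out. Array weights gave PLLARS_US replicate 1 a weight of 0.209 and PCL replicate 3 one of 0.295, and made the tests of Mdm4, Eif2ak2 and Rps6kb2 pass. Of 53 named genes, 41 kept their sign throughout. Rps6 (-0.02) changed to 0.11 and 0.024 with pseudocounts of 0.1 and 0.5, 0.0064 with median-ratio scaling, 0.094 with quantile normalization, 0.49 with array weights and 0.0065 without both muscle-rich libraries. Rps27l changed to 0.084 with array weights and 0.051 without both muscle-rich libraries. Rpl3l changed to 0.020 with a pseudocount of 0.1 and 0.16 without both muscle-rich libraries. With 1 library left out, the log2 difference ran from -0.015 to 0.31 for Rps20, -0.034 to 0.19 for Rps15, -0.31 to 0.20 for Rps6, -0.94 to 0.11 for the Rpl38 copy, -0.16 to 1.07 for Rpl8, -0.51 to 0.081 for Rps9, -0.23 to 0.044 for Rps27l, -1.22 to 1.13 for Rpl3l, -0.28 to 1.64 for the second Rpl7a model, -0.0067 to 0.13 for Rpl18, -0.067 to 0.25 for Rpl3 and -0.10 to 0.20 for Rpl13a. The causes were not tested.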

Other observations

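Outside the rule, 112 further models were described as cytoplasmic ribosomal proteins, many of them copies with LOC symbols, and these were looked up after values were seen. Of the 79 with a mean of at least 1 FPKM, 62 had a log2 difference above 0, 8 were higher and 0 lower at an unadjusted p under 0.05, against 1.99% and 5.01% of all tested genes, and the median was 0.22. Their smallest p belonged to AABR07073045.1, an S25-like model without a RefSeq name, at 11.4, 12.6 and 17.3 FPKM in PLLARS_US and 0.0, 3.37 and 1.41 FPKM in PCL. Its log2 difference was 2.73 (SE 0.53, unadjusted p = 0.00204, limma adjusted p = 0.318). The main gene Rps25 had 798, 928 and 940 FPKM in PLLARS_US and 804, 685 and 696 FPKM in PCL, a log2 difference of 0.29. Several of these models are main genes by their Entrez identifier. LOC100911847 is Rps14 and had 1204, 1429 and 1489 FPKM in PLLARS_US and 1348, 1190 and 1118 FPKM in PCL. LOC108352650 is the main Rps29 gene and had 481, 632 and 652 FPKM in PLLARS_US and 612, 481 and 514 FPKM in PCL, so the Rps29 copy described above is set beside a parent whose groups overlapped. LOC100360057 is Rpl22 and had 348, 451 and 405 FPKM in PLLARS_US and 389, 343 and 328 FPKM in PCL. With these models included, ribosomal protein models held 7.69, 10.5 and 10.4% of summed FPKM in PLLARS_US and 9.51, 8.60 and 7.06% in PCL.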
